A study of Mus musculus with 4 samples.

Results

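Msx1, Msx2, Hand1, Hand2, Alx1, Alx4, Prrx1 and Prrx2 are 4 pairs of paralogous transcription factor genes of the face and jaw. They were taken from the array as every probe whose gene symbol, after old synonyms were brought up to date, was 1 of these 8 names. All 8 genes were measured, by 10 of the 29922 probes, among 16637 named genes. Msx1, Msx2, Hand1, Hand2, Alx1 and Prrx2 had 1 probe each, and Alx4 and Prrx1 had 2. Whole mandibles of C57BL/6 mouse embryos at stage E11.5 were profiled on 4 one-colour microarrays. The control group was wild-type (2 arrays). The Bmp4 OE group carried a conditional overexpression of Bmp4 that was switched on with doxycycline (dox) for 24 hours (2 arrays). Neither the promoter or Cre behind the overexpression nor any doxycycline treatment of control embryos is given in the sources used here, so effects of the drug, of the transgene system and of Bmp4 cannot be told apart. No label says that the 2 arrays of a group hold different embryos, so the p-values capture the spread between these 4 RNA samples, and that spread may be technical. The titles carry codes that end in consecutive numbers within each group, and no label says what the codes stand for. An effect of whatever they record cannot be told apart from one of the group.

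Bmp4 is a secreted bone morphogenetic protein (BMP) that binds receptors on neighbouring cells and activates Smad transcription factors. In the mandibular arch it is made in the distal epithelium and mesenchyme, where the incisors and the chin region form. Msx1 and Msx2 are homeodomain factors and classic targets of BMP signalling. Hand1 and Hand2 are basic helix-loop-helix (bHLH) factors of the distal arch, and Hand2 acts downstream of endothelin-1. Alx1 and Alx4 are paired-type homeodomain factors of the facial midline, and Prrx1 and Prrx2 are related factors found widely in neural crest mesenchyme. RNA of whole mandibles holds no record of position, so the distal location of these genes is background and was not measured here.

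Bmp4, the check of the labels, read 11.96 and 12.07 in the control arrays and 15.27 and 15.31 in the Bmp4 OE arrays (log2 intensity). Both Bmp4 OE arrays stood above both controls, a 9.68-fold difference (limma, adjusted p = 0.00137). The 4 arrays shared 1 distribution of values, with a lower quartile of 6.79, a median of 7.95 and a maximum of 16. None of the 10 probes of the Msx, Hand, Alx and Prrx genes lay below the lower quartile on any array. Arrays of 1 group correlated across probes with r = 0.993 in both groups, and arrays of different groups with r from 0.974 to 0.981. Pdgfra, a receptor gene that marks facial mesenchyme, read 13.86 and 13.85 in controls and 13.91 and 13.85 in Bmp4 OE mandibles, far above the median on every array. Other mesenchyme markers did change. Twist1, Col1a1 and Pdgfrb fell, with log2 fold changes of -1.185, -0.56 and -0.515, and Dcn rose by 0.855 at its brightest probe.

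Of the 8 genes, 4 rose in the Bmp4 OE mandibles, 0 fell and 4 did not pass the test (limma, Benjamini-Hochberg adjusted p of 0.05 over all probes, with the brightest probe standing for each gene). Hand1, Msx2, Prrx2 and Msx1 rose, by 3.84-fold, 3.32-fold, 2.24-fold and 2.01-fold. Hand2, Alx1, Alx4 and Prrx1 did not pass. Among all named genes, 7.39% rose and 9.54% fell by the same test. At an unadjusted p of 0.05 in limma the counts were 4 higher and 1 lower, where all named genes had 17.6% higher and 18.8% lower. At the threshold the study states, a 2-fold change with a p of 0.05, the same count of 4 higher and 0 lower was obtained, against 1.56% higher and 1.75% lower of all named genes. The median log2 fold change of the 8 genes was 0.53, and that of all named genes was 0.00. Leaving out any 1 array left 0 probes past the adjusted threshold in limma, over the whole table as well as among the 8 genes. The lone array of a group is then assumed to vary like the 2 arrays of the other group, which alone give the spread. In those fits the 4 genes that rose had log2 fold changes from 1.00 to 1.965, and 4 or 5 of the 8 genes had an unadjusted p below 0.05.

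**Figure D1:**
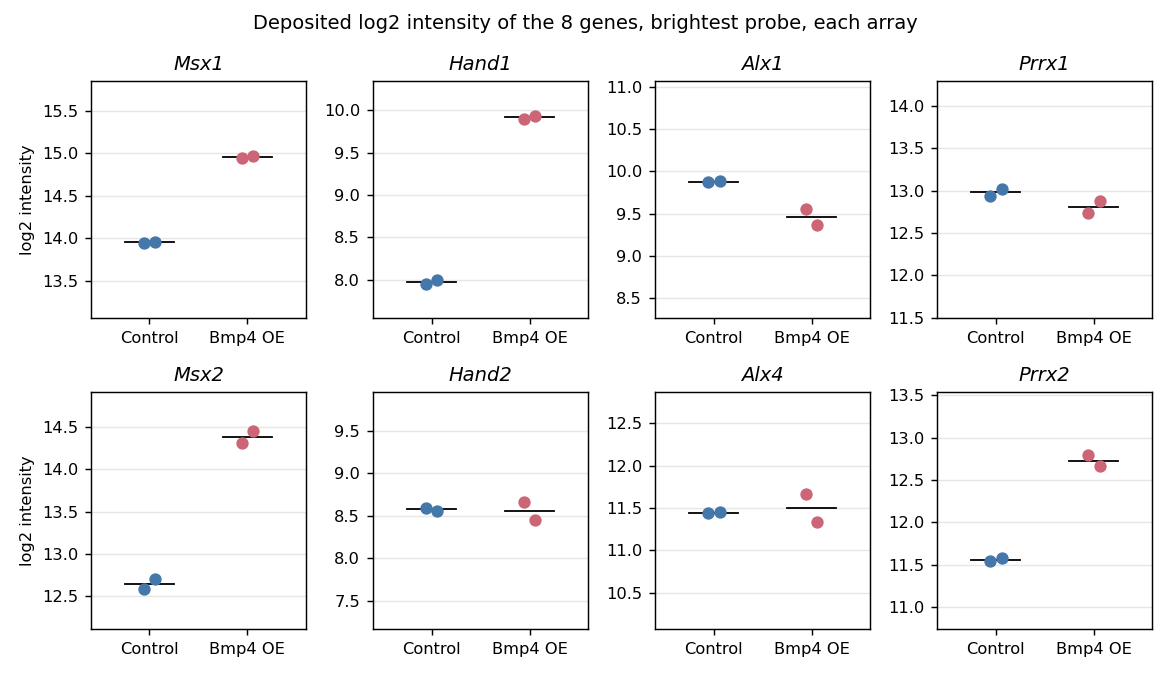
Deposited log2 intensity (vertical axis) of the brightest probe of each gene in the 2 control and the 2 Bmp4 OE arrays. Points are arrays, bars are group means, and every panel spans the same number of log2 units around its own centre, since levels of different probes are not comparable; the groups are far apart for Msx1, Msx2, Hand1 and Prrx2 and close or overlapping for the other 4 genes.

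Msx1 and Msx2 both rose. Msx1, which is needed for tooth and palate development, read 13.94 and 13.96 in controls and 14.95 and 14.97 in Bmp4 OE mandibles (log2 intensity). The groups lay 0.99 apart at their nearest arrays, whereas the arrays of each group differed by 0.02. The log2 fold change of Msx1 was 1.01 with a standard error of 0.10 and a 95% interval of 0.76 to 1.26 (limma, adjusted p = 0.00741). Msx2, which acts in the skull vault, teeth and limb buds, read 12.59 and 12.71 in controls and 14.31 and 14.45 in Bmp4 OE mandibles. Its groups lay 1.60 apart, against differences of 0.12 and 0.14 between arrays of 1 group. The log2 fold change of Msx2 was 1.73 with a standard error of 0.11 and a 95% interval of 1.45 to 2.01 (limma, adjusted p = 0.00326). The Bmp4 OE levels of both genes lay within 2 log2 units of the top of the scale, where an array can understate a rise. In the order of all named genes by log2 fold change, from the largest rise, Msx2 was number 48 and Msx1 number 254.

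The sequences just upstream of the 2 Msx genes are shown because both genes rose, so that shared short motifs can be looked for. Each is the 250 bases before the RefSeq transcription start in GRCm38.p6, written 5′ to 3′ on the strand of the gene, with TAATTA and GGCGCC in capitals. The Msx1 window is chr5:37824586-37824835 on the minus strand, with 68% G and C, and the Msx2 window is chr13:53472781-53473030 on the minus strand, with 61.6% G and C. The median of all 32851 promoter windows in the RefSeq table was 52.4%.
Msx1: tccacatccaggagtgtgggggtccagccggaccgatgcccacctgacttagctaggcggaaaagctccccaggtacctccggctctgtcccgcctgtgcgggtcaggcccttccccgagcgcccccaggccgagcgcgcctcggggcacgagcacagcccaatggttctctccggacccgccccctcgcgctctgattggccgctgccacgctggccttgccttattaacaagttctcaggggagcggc
Msx2: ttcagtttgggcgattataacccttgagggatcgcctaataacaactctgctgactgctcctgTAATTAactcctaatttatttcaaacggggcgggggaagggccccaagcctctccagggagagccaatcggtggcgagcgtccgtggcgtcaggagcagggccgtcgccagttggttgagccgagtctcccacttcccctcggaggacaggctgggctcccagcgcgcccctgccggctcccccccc

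Of the Hand genes, Hand1 rose and Hand2 did not pass. Hand1, a bHLH factor of the most distal arch mesenchyme and of the heart, read 7.95 and 8.0 in controls and 9.90 and 9.93 in Bmp4 OE mandibles (log2 intensity). Its control values lay near the median of all values, and both Bmp4 OE arrays stood 1.90 or more above both controls. Hand1 had the largest change of the 8 genes, with a log2 fold change of 1.94, a standard error of 0.10 and a 95% interval of 1.69 to 2.19 (limma, adjusted p = 0.00201), and was number 35 of all named genes from the largest rise. Hand2, which is required for the distal jaw, the heart and the limb buds, read 8.59 and 8.56 in controls and 8.66 and 8.45 in Bmp4 OE mandibles. The 2 control values of Hand2 lay between its 2 Bmp4 OE values. Its log2 fold change was -0.02 with a 95% interval of -0.31 to 0.27, which in fold terms runs from 0.805 to 1.21 (limma, adjusted p = 0.928). A Hand2 response of the size seen for Hand1 lay outside this interval.

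The Hand2 window, chr8:57320733-57320982 on the plus strand, is shown as the upstream sequence of the pair member that did not pass. It holds 49.2% G and C, and contains the motifs TAATTA and GGCGCC, both in capitals.
Hand2: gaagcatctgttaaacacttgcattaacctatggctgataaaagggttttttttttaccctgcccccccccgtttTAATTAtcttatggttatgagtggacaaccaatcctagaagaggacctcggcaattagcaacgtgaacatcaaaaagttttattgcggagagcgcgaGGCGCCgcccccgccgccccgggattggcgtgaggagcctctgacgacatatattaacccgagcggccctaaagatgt

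Neither Alx gene passed. Alx1, whose loss disturbs the cranial base and midface, read 9.87 and 9.88 in controls and 9.55 and 9.36 in Bmp4 OE mandibles (log2 intensity). Both Bmp4 OE arrays of Alx1 lay below both controls, by at least 0.32. The log2 fold change of Alx1 was -0.42 with a standard error of 0.11 and a 95% interval of -0.71 to -0.13, and the adjusted p was 0.0646 over all probes (limma; unadjusted p = 0.0119). With probes below the median intensity left out, which leaves fewer probes to adjust over, the same change had an adjusted p of 0.0457. Alx4, which patterns the skull and the limb buds, was read by 2 probes. The brighter Alx4 probe gave 11.44 and 11.45 in controls and 11.67 and 11.33 in Bmp4 OE mandibles, a log2 fold change of 0.055 with a 95% interval of -0.30 to 0.41 (limma, adjusted p = 0.827). Its controls lay between the Bmp4 OE arrays. The dimmer Alx4 probe gave 8.60 and 8.95 in controls and 9.69 and 9.03 in Bmp4 OE mandibles, a log2 fold change of 0.585 with a 95% interval of -0.02 to 1.19 (limma, adjusted p = 0.164). At both Alx4 probes Bmp4 OE replicate 1 was the highest array, by 0.34 and 0.66 over Bmp4 OE replicate 2. Without Bmp4 OE replicate 1, the log2 fold change of the brighter Alx4 probe was -0.115.

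Prrx2 rose and Prrx1 did not pass. Prrx2, a paired-related factor that acts with Prrx1 in jaw and limb mesenchyme, read 11.54 and 11.58 in controls and 12.79 and 12.66 in Bmp4 OE mandibles (log2 intensity). The Prrx2 groups lay 1.08 apart at their nearest arrays, with differences of 0.04 and 0.13 inside the groups. The log2 fold change of Prrx2 was 1.17 with a standard error of 0.11 and a 95% interval of 0.90 to 1.43 (limma, adjusted p = 0.00642), number 166 of all named genes from the largest rise. Prrx1, whose loss shortens the mandible and disturbs the skeleton of head and limbs, was read by 2 probes. The brighter Prrx1 probe gave 12.94 and 13.02 in controls and 12.74 and 12.88 in Bmp4 OE mandibles, and the dimmer one gave 11.82 and 11.69, then 11.67 and 11.58. At both Prrx1 probes the Bmp4 OE arrays lay just below the controls, by at least 0.06 and 0.02. The log2 fold changes were -0.17 (95% interval -0.45 to 0.11; limma, adjusted p = 0.342) and -0.13 (95% interval -0.40 to 0.14; limma, adjusted p = 0.464). A rise of Prrx1 as large as that of Prrx2 lay outside both intervals.

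The upstream windows of the Prrx pair are shown for the same comparison of a gene that rose with its paralogue. The Prrx2 window is chr2:30845117-30845366 on the plus strand, with 70% G and C, and the Prrx1 window is chr1:163313651-163313900 on the minus strand, with 47.6% G and C.
Prrx2: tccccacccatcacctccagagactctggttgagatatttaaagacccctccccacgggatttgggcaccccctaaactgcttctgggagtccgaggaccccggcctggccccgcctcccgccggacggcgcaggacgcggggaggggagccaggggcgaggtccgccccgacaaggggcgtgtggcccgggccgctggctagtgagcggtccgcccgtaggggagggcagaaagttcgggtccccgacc
Prrx1: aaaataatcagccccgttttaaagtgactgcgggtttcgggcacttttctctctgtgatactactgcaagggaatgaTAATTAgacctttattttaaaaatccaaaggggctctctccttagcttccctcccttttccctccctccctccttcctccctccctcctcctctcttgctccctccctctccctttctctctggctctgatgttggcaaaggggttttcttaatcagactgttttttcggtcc

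RefSeq promoter windows were matched by symbol for 5 of the 8 genes; Hand1, Alx1 and Alx4 had no window. On both strands of the 250 bases, TAATTA, a sequence bound by many homeodomain proteins, occurred in 3 of the 5 windows (Msx2, Hand2 and Prrx1) and in 4.84% of all windows. These matches began 187, 175 and 173 bases before the start. The E-box CANNTG, the general site of bHLH proteins, occurred in Msx1, Msx2 and Hand2 and in 66.2% of all windows. GGCGCC, a G and C rich sequence bound by BMP Smads, occurred in Hand2 and in 9.59% of all windows. GTCTAGAC, the palindromic Smad binding element, occurred in 0 of the 5 and in 0.167% of all windows, and TATAAA in 0 of the 5 and in 12.4% of all windows. No match overlapped another motif in these windows. The 3 genes with a window that rose did not share a motif from this set, as the Prrx2 window held none of them.

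**Figure D2:**
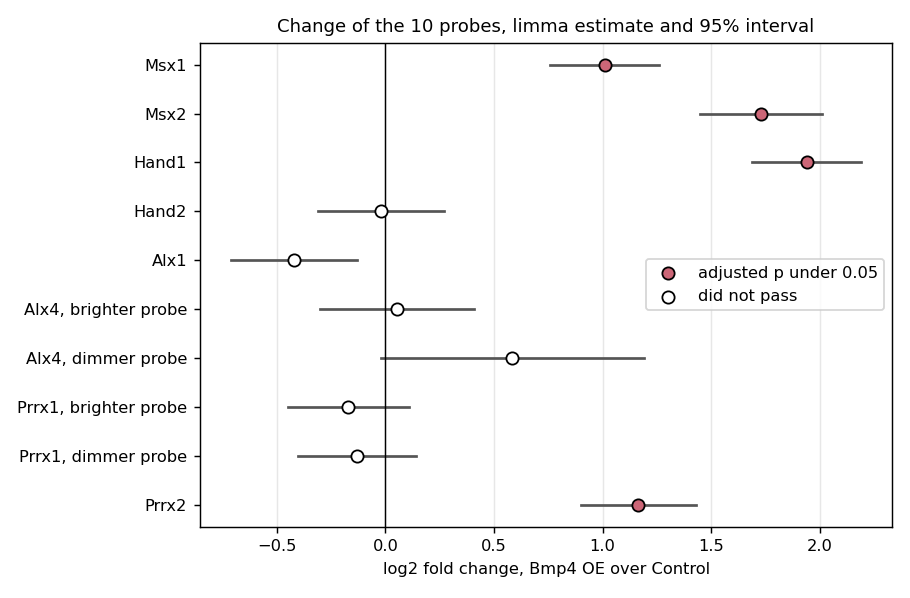
Log2 fold change of Bmp4 OE over control (horizontal axis) for each of the 10 probes, as the limma estimate (point) with its 95% interval (line). Filled points passed an adjusted p of 0.05; Msx1, Msx2, Hand1 and Prrx2 lie at 1.01 or above, and the intervals of the other probes reach or come near 0.

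The order of the changes was Hand1, Msx2, Prrx2 and Msx1. The 95% intervals of Hand1 (1.69 to 2.19) and Msx2 (1.45 to 2.01) overlapped, as did those of Prrx2 (0.90 to 1.43) and Msx1 (0.76 to 1.26), so neither pair of neighbours could be ordered. The interval of Msx2 began just above the end of that of Prrx2. Of the 8 genes, 4 were higher in Bmp4 OE replicate 1 than in replicate 2 and 4 were lower. In the controls 1 of the 8 genes was higher in replicate 1 than in replicate 2. By overlap alone, 4 of the 8 genes had both Bmp4 OE arrays above both controls and 2 (Alx1 and Prrx1) had both below, while 31% and 32.3% of all named genes did so.

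On these 4 arrays, paralogues differed in the size of their change by more than the 2 arrays of a group differed. The differences below are made from the single-gene values given above and are no separate evidence. To compare paralogues, the log2 value of 1 gene was subtracted from that of the other on the same array, which cancels any factor that scales a whole array. Msx2 minus Msx1 was -1.35 and -1.25 in controls and -0.64 and -0.52 in Bmp4 OE mandibles, a change of 0.72. As measured by these 2 probes, Msx2 gained 1.65-fold more than Msx1. The Bmp4 OE mean of Msx1 (14.96) was nearer than that of Msx2 (14.38) to the maximum of 16, where a rise can be understated. The part of this limit in the difference was not tested. Hand1 minus Hand2 went from -0.64 and -0.56 to 1.24 and 1.48, a change of 1.96. Prrx2 minus Prrx1 went from -1.40 and -1.44 to 0.05 and -0.22, a change of 1.33. Alx4 minus Alx1 went from 1.57 and 1.57 to 2.12 and 1.97, a change of 0.48. In all 4 pairs the Bmp4 OE arrays lay outside the range of the controls, including the Alx pair, of which neither gene passed. The share of all gene pairs that do so was not computed. Of all named genes taken singly, 31% had both Bmp4 OE arrays above both controls and 32.3% had both below. The exact permutation test (two-sided) gave p = 0.333 for each of the 4 pairs, also after adjustment over them, which is the smallest p that 2 arrays against 2 allow. The differences were larger than those between the 2 arrays of a group, and this permutation test cannot place them on either side of a threshold of 0.05.

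**Figure D3:**
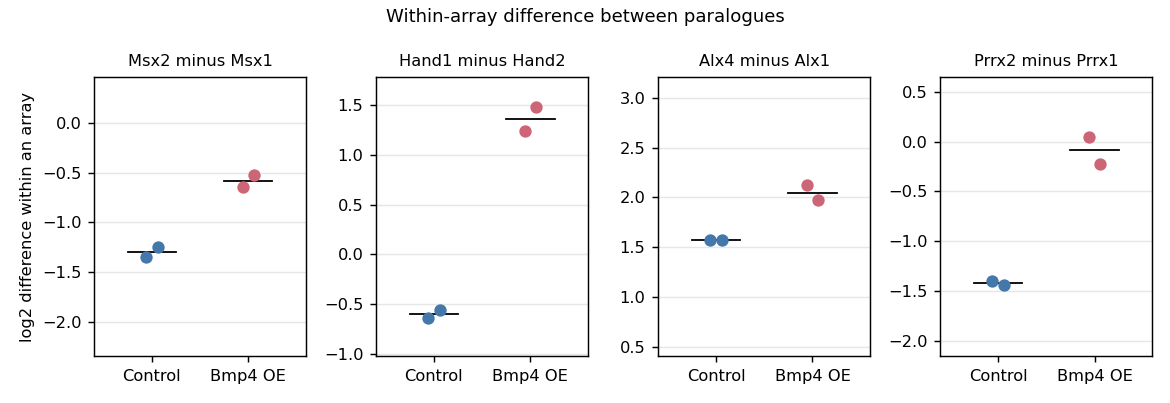
Within-array difference in log2 intensity between the 2 genes of each family (vertical axis) in the control and Bmp4 OE arrays. Points are arrays and bars are group means; the panels span the same number of log2 units, and the shift is widest for Hand1 minus Hand2 (1.96) and narrowest for Alx4 minus Alx1 (0.48).

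BMP response genes and genes of the endothelin and Dlx families were looked at next, from lists chosen with earlier results of these data known. Of 17 BMP response genes other than the Msx and Hand genes, all measured, 10 rose (58.8%), 0 fell and 7 did not pass. Their median log2 fold change was 0.93, and at an unadjusted p of 0.05 in limma 12 were higher and 0 lower. The shares of all named genes were 7.39% risen and 9.54% fallen, and 17.6% higher and 18.8% lower at the unadjusted p. Tbx20, a T-box factor of the heart, read 6.10 and 6.15 in controls and 8.33 and 8.09 in Bmp4 OE mandibles, a rise of 4.24-fold from control values below the lower quartile (limma, adjusted p = 0.00267). Smad6, an inhibitor of BMP signalling, and the zinc finger genes Gata3 and Gata2 also rose, by 5.26-fold, 12.5-fold and 6.23-fold. The 7 genes that did not pass had log2 fold changes from 0.005 (Id2) to 0.48 (Bambi). Of these, Id3 lay at 15.87 or above on all 4 arrays, at the top of the scale, where it could hardly rise. Smad7 lay below the lower quartile on all 4 arrays. The endothelin and Dlx list holds inputs of Hand2 and other Dlx genes. Of its 13 measured genes, 3 rose (23.1%), 2 fell (15.4%) and 8 did not pass, with a median of 0.11. At an unadjusted p of 0.05 in limma 5 were higher and 3 lower. Edn1, the endothelin ligand upstream of Hand2, read 7.44 and 7.53 in controls and 7.50 and 7.81 in Bmp4 OE mandibles, and its log2 fold change of 0.17 missed the threshold. Dlx5 and Dlx6, the homeobox genes between endothelin and Hand2, missed it too, with log2 fold changes of 0.11 and -0.50. Mef2c, a MADS-box factor of the same route, and Dlx3, a homeobox gene, rose 1.74-fold and 1.75-fold. Dlx1, a proximal homeobox gene, and Gna11, a G protein subunit, fell 2.52-fold and 1.56-fold. The receptor gene Ednra was not analysed here.

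Hand proteins bind DNA as pairs with other bHLH proteins. Of 11 such partners and modulators measured, 2 rose (18.2%), 3 fell (27.3%) and 6 did not pass, with a median log2 fold change of 0.00. The shares of all named genes were 7.39% and 9.54%. At an unadjusted p of 0.05 in limma 3 of the list were higher and 4 lower, where all named genes had 17.6% and 18.8%. Twist1, a bHLH factor of crest mesenchyme that pairs with Hand proteins, read 14.40 and 14.38 in controls and 13.12 and 13.29 in Bmp4 OE mandibles, a 2.27-fold fall (limma, adjusted p = 0.00667). Twist2, its paralogue, fell 3.00-fold. Of the E-proteins, the general bHLH partners, Tcf4 fell 2.17-fold, while Tcf3 and Tcf12 did not pass, at log2 fold changes of 0.035 and -0.005. Id1, which binds E-proteins and keeps them from DNA, rose 2.50-fold. Id1 and Id4, the genes of this list that rose, were already counted among the BMP response genes that rose. Hand1 was thus higher on arrays where both Twist genes and 1 of 3 E-protein genes were lower.

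Other markers of the distal and proximal mandible moved in different directions. Of 8 measured distal genes outside the 4 families, 5 rose (62.5%), 0 fell and 3 did not pass, with a median log2 fold change of 0.88. At an unadjusted p of 0.05 in limma 5 were higher and 1 lower. The shares of all named genes were 7.39% risen and 9.54% fallen, and 17.6% higher and 18.8% lower at the unadjusted p. Gata2, Gata3 and Tbx3, which rose, and Tbx2, which did not pass, are also in the BMP response list. Isl1, a LIM-homeodomain factor of the distal arch epithelium, rose 7.89-fold, and Tbx3, a T-box factor, and Foxf2, a forkhead factor of oral mesenchyme, rose 1.91-fold and 1.77-fold. Of 14 measured proximal genes, 2 rose (14.3%), 9 fell (64.3%) and 3 did not pass, with a median of -1.15. At the unadjusted p in limma 3 were higher and 10 lower. Barx1, a homeobox gene of the molar field, read 12.57 and 12.55 in controls and 9.37 and 9.46 in Bmp4 OE mandibles, an 8.85-fold fall. Shox2, Lhx8 and Emx2, homeobox genes of the same list, fell 7.57-fold, 2.76-fold and 2.88-fold, and both Bmp4 OE values of Emx2 lay below the lower quartile, where the array understates a fall. Meis2, a TALE homeobox gene, was 1 of the 2 that rose, by 2.03-fold at its brightest probe, while the second probe, at 0.40 on the log2 scale, did not pass. Dlx2, which also rose, and Dlx1, which fell, were already counted in the endothelin and Dlx list.

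Of 12 genes linked to Msx, Hand or Prrx factors by loss of function in the face, 1 rose, 4 fell and 7 did not pass. Their median log2 fold change was -0.40. The share that rose, 8.33%, was near the 7.39% of all named genes, and the share that fell was 33.3% against 9.54%. At an unadjusted p of 0.05 in limma 2 were higher and 8 lower, where all named genes had 17.6% and 18.8%. Osr2, an odd-skipped factor that opposes the Msx1 and Bmp4 loop in tooth mesenchyme, fell 12.8-fold. Sdc1, the cell surface proteoglycan syndecan-1, and Fgf8, an epithelial growth factor, fell 2.07-fold and 1.95-fold. Shh, a signal of the oral epithelium, rose 1.71-fold. Lef1, a WNT effector of the tooth germ, fell 1.43-fold at its brightest probe, and its second probe, with a log2 fold change of -0.23, did not pass. Bmp2, another BMP ligand, did not pass either (log2 fold change -0.45).

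**Figure D4:**
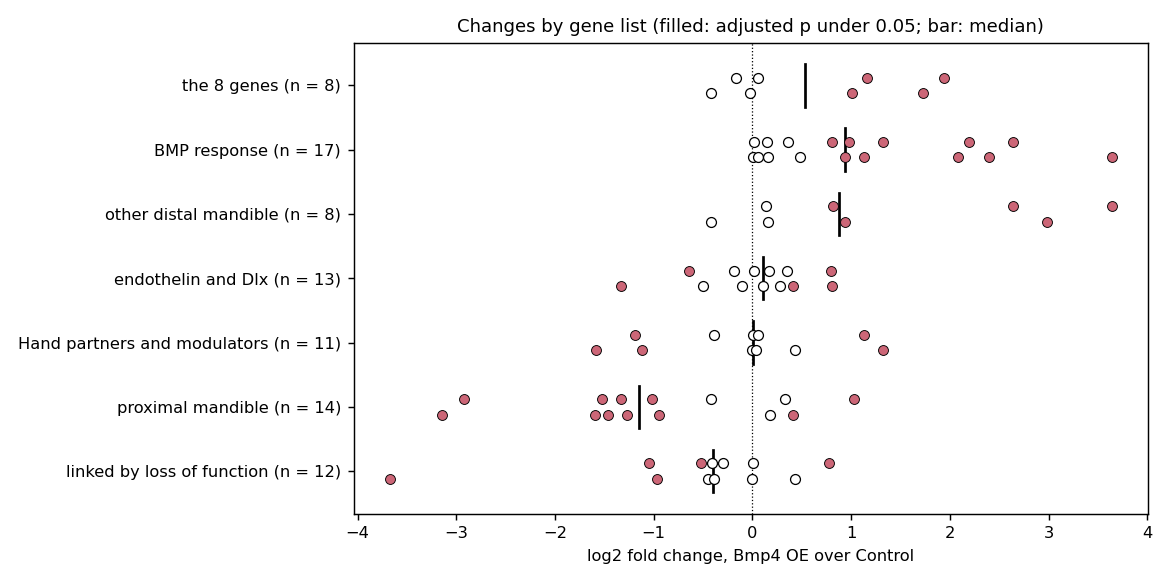
Log2 fold change of Bmp4 OE over control (horizontal axis) of the measured genes in each list, with the 8 Msx, Hand, Alx and Prrx genes in the top row. Points are genes, filled where the adjusted p was under 0.05, and bars are list medians, from 0.93 for BMP response genes to -1.15 for proximal mandible genes.

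The genes most alike in pattern to each gene that rose were found by the root mean square difference of the deviations from the gene's own mean over the 4 arrays, among named genes with a mean above the lower quartile. With 2 arrays in each group this measure follows mainly the size of the group difference. Nearest to Msx2 was Gadd45g, a growth arrest gene, at 0.008 log2 units, followed by Slco3a1, an organic anion transporter gene, at 0.035. Gadd45g read 9.71 and 9.84 in controls and 11.43 and 11.59 in Bmp4 OE mandibles. The other 3 probes of Slco3a1 gave log2 fold changes of 0.56, -0.03 and 1.39, and those at 0.56 and 1.39 also passed. Likeness was measured at the brightest probe of each gene only. Nearest to Hand1 were Bmf, a pro-apoptotic gene of the Bcl2 family, at 0.057, and the cartilage collagen gene Col9a1, at 0.059, whose second probes gave log2 fold changes of 1.31 and 2.01. Nearest to Prrx2 were Ush1c, a scaffold protein gene, at 0.013, and Tmem178, a transmembrane protein gene, at 0.014. Nearest to Msx1 were Lce1e, a cornified envelope gene with control values below the lower quartile, at 0.017, and Serping1, the complement C1 inhibitor gene, at 0.021.

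The share of cell types in the mandibles may differ between groups, and in whole tissue fewer cells of a type and less RNA per cell cannot be told apart. The summed intensity of 8 mesenchyme markers, as a log2 value, was 17.23 and 17.24 in controls and 17.15 and 17.09 in Bmp4 OE mandibles. This sum can hardly move, because Vim, at the maximum of 16 on all 4 arrays, and Col3a1 make up most of it. The list had a median of -0.06 on the log2 scale. The sum of 7 epithelium markers was 15.11 and 15.18, then 14.81 and 14.87. This fall follows the bright Krt14 probe, with a log2 fold change of -0.79, whereas the keratin genes Krt8 and Krt18 and the cadherin gene Cdh1 rose by 1.225, 1.195 and 0.915 on the log2 scale and the median of the list was 0.21. The sums of 6 muscle, 7 neuron, 6 macrophage and 5 mural cell markers were higher by 0.84, 0.83, 0.66 and 0.43 in Bmp4 OE mandibles, and that of 6 endothelium markers by 0.25. The neuron sum follows 1 probe of Elavl3, which was 0.75 higher on the log2 scale and did not pass (adjusted p = 0.0552 in limma), while its second probe gave -0.03, and the 1 neuron marker that passed was Isl1, which is also in the distal list. The sum of 3 Schwann and crest glia markers was lower by 0.39. The erythroid sum could not move, as Hba-x and Hbb-y lay at the top of the scale, and the third marker, Alas2, fell by 0.585 on the log2 scale. Members that passed were 1 of 8 higher and 3 of 8 lower for mesenchyme, 3 of 7 and 2 of 7 for epithelium, 3 of 6 and 0 of 6 for muscle, 1 of 7 and 0 of 7 for neurons, 2 of 6 and 0 of 6 for macrophages, 3 of 5 and 1 of 5 for mural cells, and 0 of 3 and 1 of 3 for erythroid cells. Of the 6 endothelium and 3 glia markers 0 passed in limma, and at an unadjusted p of 0.05 the counts were 3 higher and 0 lower for endothelium, 0 higher and 1 lower for glia, 4 and 0 for muscle, 3 and 0 for neurons, 5 and 0 for macrophages, and 0 and 1 for erythroid cells. Among all named genes 7.39% rose and 9.54% fell in limma, and 17.6% were higher and 18.8% lower at the unadjusted p. The muscle count includes Actc1, whose second probe gave -0.09 on the log2 scale and did not pass. The mural count includes Acta2, whose other probes gave -0.16, 0.69 and -0.22, and of these only the one at 0.69 passed. Pdgfrb, which fell, is in both the mesenchyme and the mural list, and Twist1 is also in the list of Hand partners. The part of the cell types in the changes of the Msx, Hand, Alx and Prrx genes was not tested.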

How the data were processed

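Total RNA of whole mandibles was purified on columns and labelled with Cy5 through amplified aminoallyl RNA, per the labels' protocols, with 1 sample per array. The authors deposited 1 log2 intensity per probe and array, and the sorted values of the 4 columns matched throughout (largest difference 0), which is the mark of quantile normalisation before deposition. A shift of most genes therefore cannot be seen, and values near the maximum or the minimum are compressed. The log base was read from the maximum of 16. No source used here gives the scanner, the background correction or the software. The number of arrays limits the precision.

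Of 29922 probes, 21020 had 1 gene symbol in the platform annotation, 0 had several and 8902 had none, and 3410 symbols were updated through synonyms in the GRCm38.p6 RefSeq gene table. The brightest probe, by the mean over 4 arrays, stood for a gene. The 2 groups were compared probe by probe with limma (version 3.58.1, R version 4.3.3; lmFit, then eBayes with no trend and no filter; two-sided), and p-values were adjusted over all probes by Benjamini-Hochberg. This step was tested on simulated data. Same-numbered arrays did not deviate together from their group means (r = -0.0711), so replicate numbers were not taken as pairs.

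The 8 genes and all gene lists were chosen with earlier results of these data known. Genes named in the text were the 8 genes, Bmp4, the 4 with the smallest p in each list with usual partners and inputs of the 8 genes, and the 2 genes most alike in pattern to each that rose; further list members named were chosen after their values were seen. Alternatives covered scaling, the log offset, dim probes, the variance model, the replicate block, probes per gene, the threshold and the removal of each array.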

Additional observations from a re-analysis of the deposited data

How the results depend on the processing

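Median centring and repeated quantile normalisation return the same values, since the table was already quantile-normalised, and test nothing. Log2 of the linear value plus 50, an intensity trend, robust variances and removal of dim probes kept the 4 rises past an adjusted p of 0.05 in limma, and so did the mean of all probes of a gene. Under the replicate block, which leaves 1 residual degree of freedom, 0 probes were higher and 0 lower, and 0 of the 8 genes were higher; Msx1, Msx2, Hand1 and Prrx2 kept log2 fold changes of 1.01, 1.73, 1.94 and 1.165 with an adjusted p of 0.0745 each, with 8724 probes below an unadjusted p of 0.05. The pairing of replicate numbers has no other support in these data. Leaving out 1 array gave 0 probes higher, 0 lower and 0 of the 8 genes higher in every case, with 6020 to 7947 probes at an unadjusted p under 0.05. The log2 fold changes then ranged from 1.00 to 1.02 for Msx1, 1.66 to 1.80 for Msx2, 1.915 to 1.965 for Hand1, 1.10 to 1.23 for Prrx2, -0.515 to -0.325 for Alx1 and -0.24 to -0.10 for Prrx1, with adjusted p-values of 0.138 to 0.191 for the first 4 genes. Hand2 ranged from -0.125 to 0.085 and was positive without Bmp4 OE replicate 2 (0.085), and Alx4 ranged from -0.115 to 0.225 and was negative without Bmp4 OE replicate 1 (-0.115). At the study's threshold 364 probes were higher and 419 lower, against 1912 and 2515 at the adjusted one, and the same 4 of the 8 genes passed. Without probes below the median intensity 1 of the 8 genes was lower, Alx1, with a log2 fold change of -0.42. The paralogue differences kept their direction with the linear offset and without each array. Signals near the top of the scale limit Msx1 and Msx2.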

Other observations

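Relatives of these factors outside the 4 families moved in both directions. Of 17 measured paired-type homeobox genes other than Alx and Prrx, 3 rose and 4 fell, 10 did not pass, and 5 lay below the lower quartile on all 4 arrays. Vsx1, a homeobox gene known from retinal bipolar cells, read 7.25 and 7.38 in controls and 8.80 and 8.97 in Bmp4 OE mandibles, a 2.97-fold rise (limma, adjusted p = 0.00436). Pax3, a paired factor of early neural crest, read 10.06 and 10.08 in controls and 8.32 and 8.58 in Bmp4 OE mandibles, a 3.07-fold fall (limma, adjusted p = 0.00464). Pitx1, a factor of the mandible and hindlimb, fell 2.42-fold, from 9.79 and 9.92 to 8.64 and 8.52.

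Of 16 measured NK-like homeobox genes related to Msx, 1 rose, 3 fell and 12 did not pass. The shares that rose and fell were 6.25% and 18.8% here, and 17.6% and 23.5% of the paired-type genes. Among all named genes they were 7.39% and 9.54%, so the share of NK-like genes that rose was near that of all genes. Barx1 and Emx2 of the NK-like list, and Shox2, Pitx1 and Gsc of the paired-type list, were already counted among the proximal genes that fell. Barx2, the paralogue of Barx1, read 9.55 and 9.43 in controls and 8.31 and 8.46 in Bmp4 OE mandibles, a 2.15-fold fall, and its second probe gave a log2 fold change of -0.75 that also passed. Lbx2 rose 1.48-fold, with an adjusted p of 0.0453 in limma. Msx3, the third Msx gene, lay below the lower quartile on all 4 arrays, with a log2 fold change of -0.125 that did not pass.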
